A study of Mus musculus with 8 samples.

Results

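The protein OPA1 fuses the inner membranes of mitochondria, and people with 1 defective copy of its gene can lose retinal ganglion cells, and with them their sight, and in some cases their hearing. Variants of several other nuclear genes give inherited optic atrophy, hereditary optic neuropathy or a combined loss of vision and hearing, and 10 of these were followed here in the cochlea of mice that carry an *Opa1* mutation on 1 allele. They were *Wfs1*, *Cisd2*, *Opa3*, *Tmem126a*, *Rtn4ip1*, *Dnajc30*, *Aifm1*, *Fdxr*, *Mecr* and *Nr2f1*. The genes were chosen by the diseases they are known for, with earlier results of these data known. Each symbol is listed once in the count tables, and all 10 genes were among the 19366 genes tested, out of 47628 entries that name a gene.

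Cochleae were sequenced from 4 WT mice, labelled WT_4, WT_5, WT_6 and WT_8, and from 4 *Opa1*+/- mice, labelled Het_2, Het_7, Het_484 and Het_491, all untreated and 21 days old by the study's methods. The *Opa1*+/- mice carried the germline delTTAG knock-in on 1 allele in every tissue, in a mixed background of C57BL/6J and 129 Sv/Pas, and the WT mice were their littermates. The labels do not give the sex of these mice, and by the study's text males and females were used in equal parts. Isolated cochleae hold many cell types, and in such bulk RNA fewer cells of a type cannot be told apart from less RNA per cell.

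The members belong to a few cellular systems. *Wfs1* encodes wolframin, a membrane protein of the endoplasmic reticulum that bears on calcium storage and protein folding, and *Cisd2* an iron-sulfur protein of the endoplasmic reticulum and outer mitochondrial membrane. Loss of either gives a form of Wolfram syndrome, with diabetes, optic atrophy and deafness. *Tmem126a* and *Dnajc30* serve the assembly or upkeep of complex I of the respiratory chain, and *Rtn4ip1* encodes a mitochondrial oxidoreductase linked to coenzyme Q synthesis. *Fdxr* encodes the reductase that feeds electrons to the mitochondrial ferredoxins, which build iron-sulfur clusters, and *Mecr* the last reductase of mitochondrial fatty acid synthesis. *Aifm1* encodes a flavoprotein of the intermembrane space that is needed for protein import there, and its variants are a known cause of auditory neuropathy. *Opa3* encodes a mitochondrial membrane protein, and *Nr2f1* a nuclear receptor of the COUP-TF family that acts in the development of the eye, the cortex and the inner ear.

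Counts on named genes ranged from 15978051 to 20828030 per mouse. Levels are given as CPM, counts per 1000000 counts of the library corrected by edgeR's TMM factors, with the SD over 4 mice. *Opa1*, the check of the labels, stood at 119.7 ± 6.09 CPM in WT cochleae and at 65.6 ± 4.42 CPM in *Opa1*+/- cochleae (SD, n = 4 each), a log2 fold change of -0.87 (SE 0.0677, edgeR adjusted p = 0.00515). Unless another tool is named, p-values come from the quasi-likelihood test of edgeR, adjusted by Benjamini-Hochberg over all genes tested. Without Het_2 the log2 fold change of *Opa1* was -0.85, with an edgeR adjusted p of 0.0704. Hair cell, neuronal, myelin, strial and supporting cell markers were all detected in every mouse, and the 15 hair cell markers summed to between 272.4 and 393.4 CPM. The 8 photoreceptor markers of the retina summed to 4.72 CPM or less.

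No difference between genotypes passed the test in any of the 10 genes, and the estimates ran from -0.081 for *Fdxr* to 0.19 for *Mecr* on the log2 scale. At an adjusted p under 0.05, edgeR called 0 of the 10, against 0.0258% of all genes tested. DESeq2's Wald test also called 0 of the 10, against 0.119% of all genes. Without adjustment, 0 of the 10 had a p under 0.05 in edgeR, DESeq2 or limma voom, against 6.72% of all genes in edgeR (3.51% higher and 3.22% lower). In each of the 10 genes the CPM of WT and *Opa1*+/- mice overlapped. Of all genes tested, 4.31% had groups that did not overlap (1.98% higher and 2.33% lower). With only 10 genes, these counts of 0 lie near the shares over all genes. The estimates were higher than 0 in 7 genes and lower in 3, where 50.1% of all genes were higher. Their median log2 fold change was 0.018, beside 3.95e-04 over all genes, and 8 of the 10 estimates were smaller than 0.1 in size.

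**Figure D1:**
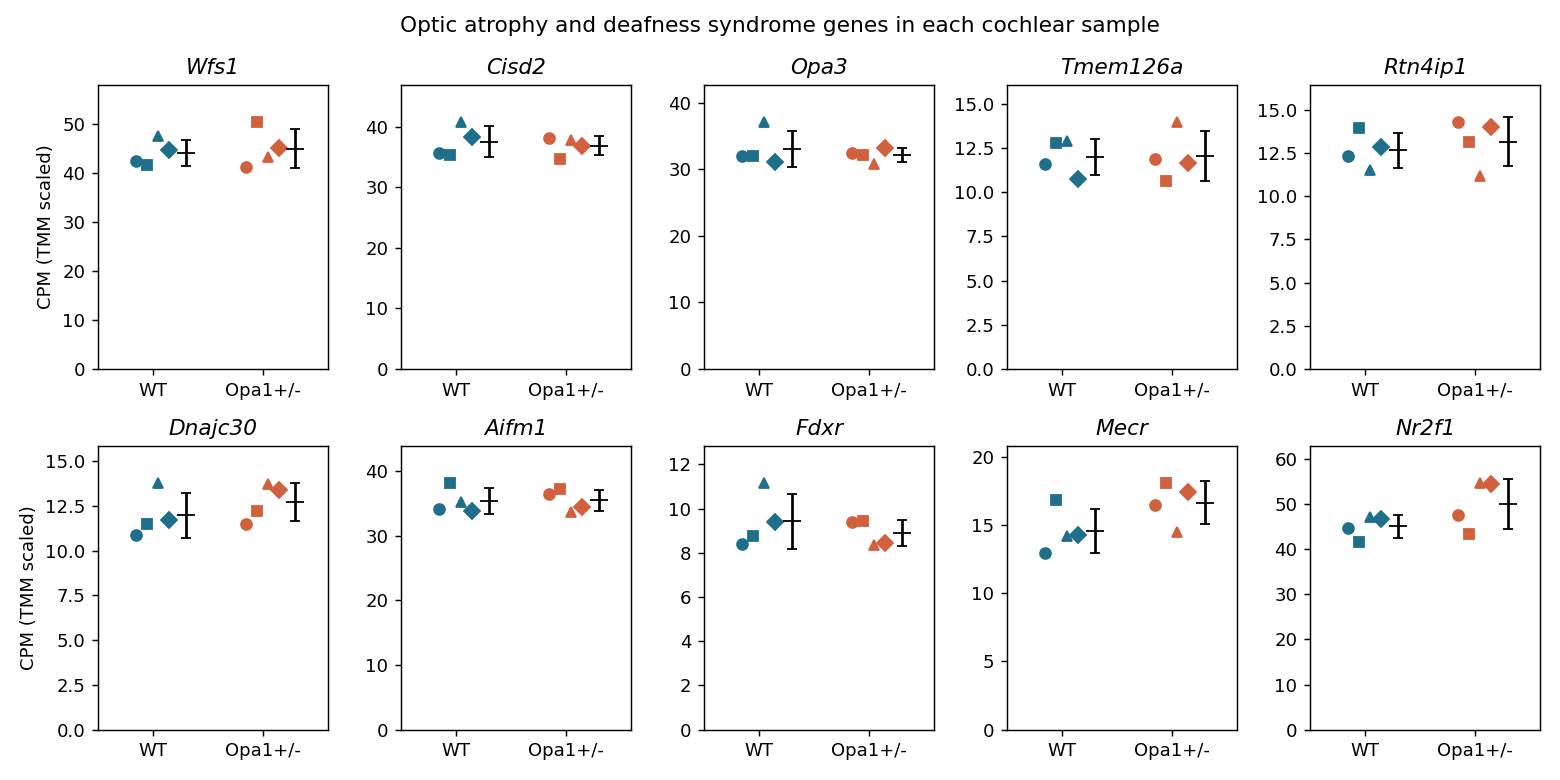
CPM of each of the 10 genes (y axis, from 0) in the 4 WT and 4 Opa1+/- mice, with circle, square, triangle and diamond for WT_4, WT_5, WT_6 and WT_8 and for Het_2, Het_7, Het_484 and Het_491 in this order. Black bars give the mean and SD of each genotype, and the groups overlap in every panel.

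These estimates were precise enough to set bounds. The standard error of the log2 fold change had a median of 0.0938 over the 10 genes, beside 0.120 over all genes tested. By edgeR's fit, *Opa1* was 45.2% lower in *Opa1*+/- mice, with a 95% interval of the change from -50.7% to -39.1%. The lowest bound among the 10 genes was that of *Fdxr*, at -20.9%, so no interval reached the size of the *Opa1* change. The highest bound was that of *Mecr*, at 34.3%. Each interval covers its own gene alone, without adjustment for the number of genes.

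**Figure D2:**
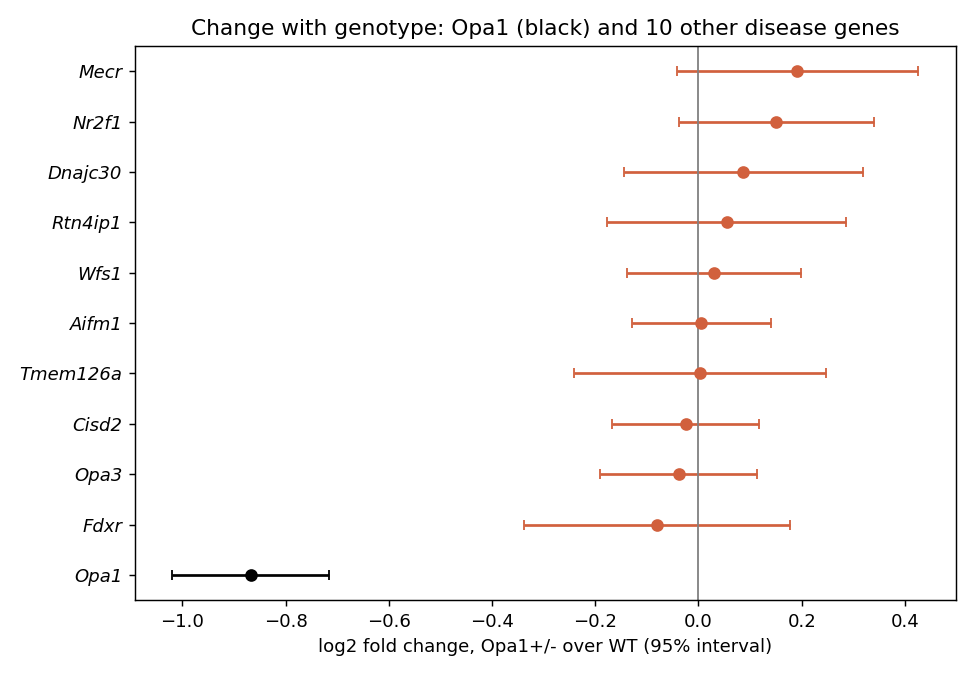
Log2 fold change of Opa1+/- over WT mice (x axis) for each gene (y axis), as points with 95% intervals from edgeR's fit over 4 WT and 4 Opa1+/- mice. Opa1, in black, lies at -0.87, and the intervals of the other 10 genes all include 0 and lie to its right.

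The Wolfram syndrome genes *Wfs1* and *Cisd2* had standard errors of 0.0748 and 0.0634 on the log2 scale, both under the median of the 10 genes. *Wfs1* lies on chromosome 5 of GRCm38 from 36966104 to 36989205 on the minus strand and has 8 exons in its principal transcript. Its levels were 42.4, 41.6, 47.6 and 44.8 CPM in WT_4, WT_5, WT_6 and WT_8 and 41.2, 50.4, 43.3 and 45.1 CPM in Het_2, Het_7, Het_484 and Het_491. The *Opa1*+/- mice held both the lowest and the highest value. Its log2 fold change was 0.030 (95% interval -0.14 to 0.20, edgeR adjusted p = 0.952). *Cisd2*, on chromosome 3 from 135406412 to 135423925 on the minus strand, stood at 35.7, 35.4, 40.8 and 38.3 CPM in WT and 38.2, 34.7, 37.8 and 36.9 CPM in *Opa1*+/- mice. All 8 values lay between 34.7 and 40.8 CPM, with a log2 fold change of -0.025 (95% interval -0.17 to 0.12, edgeR adjusted p = 0.954). Of the other 2 CDGSH iron-sulfur genes 0 passed in edgeR or DESeq2, and 0 had an unadjusted p under 0.05 in edgeR. *Cisd1*, the relative of the outer mitochondrial membrane, had a WT level of 54.5 ± 2.97 CPM and an *Opa1*+/- level of 57.1 ± 1.59 CPM (SD, n = 4 each), and *Cisd3*, the relative of the matrix, 28.7 ± 3.44 and 33.7 ± 4.46 CPM (SD, n = 4 each), at an edgeR adjusted p of 0.758.

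Genes of calcium handling and of the unfolded protein response of the endoplasmic reticulum were listed beside *Wfs1*. Of 22 tested, 0 passed the adjusted threshold in edgeR or DESeq2. Without adjustment 3 had a p under 0.05 in edgeR, 1 higher and 2 lower, beside 6.72% of all genes. The median log2 fold change of the list was -0.057. *Ddit3*, the stress-induced transcription factor CHOP, had a WT level of 27.9 ± 1.65 CPM and an *Opa1*+/- level of 34.9 ± 3.18 CPM (SD, n = 4 each), without overlap, with a log2 fold change of 0.32 (SE 0.0769, edgeR adjusted p = 0.722). *Dnajb9*, a cochaperone of the endoplasmic reticulum, had 36.7 ± 4.12 and 31.5 ± 1.47 CPM (SD, n = 4 each), a log2 fold change of -0.22 at an edgeR adjusted p of 0.722. *Canx*, named here after its values were seen, was lower without overlap, with a log2 fold change of -0.089 (edgeR adjusted p = 0.766). Over all genes tested, groups did not overlap in 4.31%.

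The complex I genes *Tmem126a* and *Dnajc30* were expressed at lower CPM, and their intervals were wider. *Tmem126a*, on chromosome 7 from 90450700 to 90457229 on the minus strand, had 11.6, 12.8, 12.9 and 10.8 CPM in the WT mice and 11.9, 10.6, 13.99 and 11.7 CPM in the *Opa1*+/- mice. The lowest and the highest value both came from *Opa1*+/- mice, Het_7 and Het_484. The genotype means were 12.01 and 12.04 CPM, with a log2 fold change of 0.0029 (95% interval -0.24 to 0.25, edgeR adjusted p = 0.997). Its paralog *Tmem126b*, which acts in complex I assembly, had a WT level of 36.7 ± 2.09 CPM and an *Opa1*+/- level of 36.2 ± 2.44 CPM (SD, n = 4 each, edgeR adjusted p = 0.964).

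*Dnajc30* is a gene of 1 exon on chromosome 5, from 135064202 to 135065862 on the plus strand. Its CPM was 10.9, 11.5, 13.8 and 11.7 in the WT mice and 11.5, 12.2, 13.7 and 13.4 in the *Opa1*+/- mice, a log2 fold change of 0.087 (95% interval -0.14 to 0.32, edgeR adjusted p = 0.894). Het_7, Het_484 and Het_491 were above all WT mice but WT_6, which had the highest value of all. Of its exon bases 26.2% are shared with *Bud23*, read from the other strand and listed in the counts under its older symbol Wbscr22. The use of strand in counting is not given in the sources used here, so reads of the shared stretch could have gone to either gene. Wbscr22 had a mean of 16.5 CPM in the WT group and 16.3 CPM in the *Opa1*+/- group. Of 14 further genes of early complex I assembly, 0 passed in edgeR or DESeq2 and 0 had an unadjusted p under 0.05 in edgeR. The lowest p among them were those of *Ndufaf3*, with a log2 fold change of 0.16 (edgeR adjusted p = 0.758), and *Ndufaf2*, also with 0.16 (edgeR adjusted p = 0.824), both assembly factors.

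*Rtn4ip1* shares its start region with *Qrsl1*, a gene of the mitochondrial machinery that loads tRNA with glutamine. It lies on chromosome 10 from 43901807 to 43957201 on the plus strand, and *Qrsl1* is read away from it on the minus strand, with the annotated starts 62 bases apart. The 61 bases between them are shown because 2 genes of this data set are read from them, in opposite directions. They are taken from the RefSeq sequence of GRCm38.p6 on the plus strand, chr10:43901746-43901806, and capitals mark CCAAT on the minus strand:

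Qrsl1 and Rtn4ip1: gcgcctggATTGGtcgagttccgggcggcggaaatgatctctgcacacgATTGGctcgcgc

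The stretch is 63.9% G and C and holds CCAAT 2 times, a match of letters and not a measured site. *Rtn4ip1* stood at 12.3, 13.96, 11.5 and 12.9 CPM in WT and 14.3, 13.1, 11.2 and 14.04 CPM in *Opa1*+/- mice. The lowest value, in Het_484, and the highest, in Het_2, came from the same genotype, and the log2 fold change was 0.054 (95% interval -0.18 to 0.29, edgeR adjusted p = 0.938). At its 3′ side *Rtn4ip1* shares 2.68% of its exon bases with *Crybg1*, listed under the older symbol Aim1, which had a mean of 16.6 CPM in the WT group and 14.97 CPM in the *Opa1*+/- group. *Qrsl1* had a mean of 12.8 CPM in the WT group and 11.8 CPM in the *Opa1*+/- group, a log2 fold change of -0.12 (SE 0.120, edgeR adjusted p = 0.866). Of 13 genes of coenzyme Q synthesis, 0 passed in edgeR or DESeq2. Only *Coq6*, a ring hydroxylase, had an unadjusted p under 0.05, with a WT level of 9.70 ± 1.61 CPM and an *Opa1*+/- level of 11.8 ± 0.574 CPM (SD, n = 4 each, edgeR adjusted p = 0.732), and *Coq9* came next, with a log2 fold change of 0.13 (edgeR adjusted p = 0.772).

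Most starts of these genes lay in CpG-rich sequence. RefSeq windows of GRCm38.p6, each 300 bases long with 250 before the start and 50 after it, were at hand for 9 of the 10 genes, with 2 windows for *Nr2f1*. Windows with at least 55% G and C and an observed over expected CpG ratio of at least 0.6 made up 9 of these 10 windows and 30.3% of 32851 windows of all genes, and the other was the second *Nr2f1* window. CCAAT stood on either strand in 6 of the 10 windows, those of *Wfs1*, *Cisd2*, *Rtn4ip1*, *Fdxr*, *Mecr* and *Aifm1*, and in 37.4% of all windows. GGGCGG stood on either strand in 7 of the 10, with 5 copies at *Opa3* and 4 at *Wfs1*, and in 35.7% of all windows. These are matches of letters and say nothing of binding. The windows of all genes were not limited to the genes tested here, so the shares are not matched to expressed genes.

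*Fdxr* had the fewest counts of the 10 genes, 132 in Het_491. It lies on chromosome 11 from 115268024 to 115277050 on the minus strand. Its levels were 8.39, 8.74, 11.2 and 9.40 CPM in WT and 9.40, 9.42, 8.35 and 8.42 CPM in *Opa1*+/- mice, with WT_6 above all others. The log2 fold change was -0.081 (95% interval -0.34 to 0.18, edgeR adjusted p = 0.913), and 0.010 without WT_6. Of 19 genes of iron-sulfur cluster assembly, 0 passed in edgeR or DESeq2 and 1, *Fdx1l*, had an unadjusted p under 0.05 in edgeR. Of the 19, 14 had positive and 5 negative estimates, with a median of 0.049. *Fdx1l*, a ferredoxin that takes its electrons from the *Fdxr* product, had a WT level of 10.9 ± 0.855 CPM and an *Opa1*+/- level of 13.0 ± 1.22 CPM (SD, n = 4 each). These groups did not overlap, and the log2 fold change was 0.25 (SE 0.1002, edgeR adjusted p = 0.722).

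*Mecr* had the largest estimate and the lowest p of the 10 genes. It lies on chromosome 4 from 131843470 to 131867786 on the plus strand, with 10 exons in its principal transcript. Its CPM was 13.0, 16.8, 14.2 and 14.3 in the WT mice and 16.5, 18.1, 14.5 and 17.4 in the *Opa1*+/- mice. All *Opa1*+/- values were above those of WT_4, WT_6 and WT_8, and WT_5 lay within the *Opa1*+/- range. The log2 fold change was 0.19 (95% interval -0.043 to 0.43, unadjusted p = 0.0977 and edgeR adjusted p = 0.763), and 12.7% of all genes tested had a lower p. Without WT_5 it was 0.27 and without Het_484 it was 0.26. The unadjusted p were 0.0283 and 0.0385 and the adjusted p 0.890 and 0.879, from edgeR. WT_5 had the highest WT value and Het_484 the lowest *Opa1*+/- value. The log2 fold change was 0.14 without WT_4 and 0.15 without Het_7, with edgeR unadjusted p of 0.222 and 0.229. Leaving out any single mouse other than WT_5 or Het_484 gave an edgeR unadjusted p of 0.138 or more. Over all single omissions the log2 fold change ran from 0.14 to 0.27.

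Of 13 other genes of mitochondrial fatty acid synthesis and lipoylation, 0 passed in edgeR or DESeq2 and 1, *Mcat*, had an unadjusted p under 0.05 in edgeR. Of the 13, 9 had positive and 4 negative estimates, with a median of 0.051. *Mcat*, the malonyl transferase that opens the pathway and itself a gene of optic atrophy, had a WT level of 5.59 ± 0.386 CPM and an *Opa1*+/- level of 7.37 ± 0.671 CPM (SD, n = 4 each). The groups did not overlap, and the log2 fold change was 0.40 (SE 0.114, unadjusted p = 0.00661 and edgeR adjusted p = 0.722). *Dlst*, a lipoylated subunit of a citric acid cycle enzyme, had a log2 fold change of 0.13 (edgeR adjusted p = 0.822).

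*Aifm1* had the smallest standard error of the 10 genes, 0.0603 on the log2 scale, with an SD of 5.63% of the mean in WT and 4.58% in *Opa1*+/- mice. It lies on chromosome X from 48474944 to 48513563 on the minus strand, with 16 exons in its principal transcript. Its CPM was 34.1, 38.2, 35.1 and 33.9 in the WT mice and 36.4, 37.2, 33.7 and 34.5 in the *Opa1*+/- mice. Both genotypes covered nearly the same range, and the log2 fold change was 0.0057 (95% interval -0.13 to 0.14, edgeR adjusted p = 0.988). Of 9 relatives and partners of its product, 0 passed in edgeR or DESeq2 and 1, *Mif*, had an unadjusted p under 0.05 in edgeR. *Mif*, a secreted cytokine that is also known as a nuclease partner of this protein, had 127.1 ± 12.04 and 148.9 ± 11.96 CPM (SD, n = 4 each, edgeR adjusted p = 0.722), and *Aifm2*, a relative that guards membranes from lipid peroxidation, a log2 fold change of 0.23 (edgeR adjusted p = 0.802).

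*Opa3*, whose variants give optic atrophy with cataract, lies on chromosome 7 from 19228334 to 19256543 on the plus strand. Its CPM was 32.0, 32.0, 37.1 and 31.0 in the WT mice and 32.4, 32.2, 30.8 and 33.3 in the *Opa1*+/- mice. WT_6 stood above the other 7 mice, which lay between 30.8 and 33.3 CPM. The log2 fold change was -0.039 (95% interval -0.19 to 0.11, edgeR adjusted p = 0.933), and 0.021 without WT_6.

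*Nr2f1*, the only member that encodes a transcription factor, lies on chromosome 13 from 78188973 to 78199757 on the minus strand. Its CPM was 44.7, 41.5, 47.2 and 46.7 in the WT mice and 47.7, 43.3, 54.7 and 54.4 in the *Opa1*+/- mice. Animals Het_484 and Het_491 were above all others, while Het_2 and Het_7 lay within or just above the WT range. Over all mice the log2 fold change was 0.15 (95% interval -0.039 to 0.34, unadjusted p = 0.106 and edgeR adjusted p = 0.765), and it was 0.014 without Het_484 and Het_491. Without Het_7 it was 0.21, with an unadjusted p of 0.0207 and an edgeR adjusted p of 0.6997. Het_484 and Het_491 also held more neutrophil and bone marrow marker RNA, with sums over 10 genes of 857.8 and 1178 CPM, against 521.4 and 464.5 CPM in Het_2 and Het_7. In WT mice these sums ran from 433.1 to 1424 CPM, and WT_4 had the highest sum together with 44.7 CPM of *Nr2f1*. Their part in the *Nr2f1* values was not tested. The antisense gene *A830082K12Rik*, which shares 123 exon bases with *Nr2f1*, had a mean of 4.01 CPM in the WT group and 3.98 CPM in the *Opa1*+/- group. The related receptors *Nr2f2*, with 64.8 ± 8.92 and 63.3 ± 4.93 CPM (SD, n = 4 each), and *Nr2f6*, with 20.4 ± 1.87 and 20.9 ± 0.884 CPM (SD, n = 4 each), had edgeR adjusted p of 0.960 and 0.950. Of these 2, 0 had an unadjusted p under 0.05 in edgeR, and 0 passed in DESeq2.

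The spread between mice was of the same order as these differences, and some mice stood apart over several of the genes. WT_6 had the highest WT value in 7 of the 10 genes, and WT_4 lay below the WT mean in 10 of 10. Over all genes tested, WT_6 was the highest WT mouse in 32.4% and the lowest in 31.6%, and WT_4 was below the WT mean in 49.6%. Among *Opa1*+/- mice, Het_484 had the lowest value in 5 of the 10 genes and the highest in 3, beside 24.7% and 23.0% of all genes tested. WT_6 and WT_4 also differed in tissue markers. WT_6 had 2554 CPM of 10 skeletal muscle markers, where the other WT mice had 338.8 to 696.2, and 1847 CPM of 10 stria vascularis markers, against 942.8 to 1431 CPM. WT_4 had 21454 CPM of 9 erythroid markers, where the others of this genotype had 7746 to 12320. In *Opa1*+/- mice the muscle markers ran from 172.0 to 1279 CPM, the strial markers from 1212 to 1389 CPM and the erythroid markers from 15062 to 25054 CPM. The part of these tissues in the values of the 10 genes was not tested. Estimates above 0 were found in 9 of 9 erythroid, 10 of 10 Schwann cell and myelin, and 2 of 2 tested retinal markers, in 7 of 14 neuronal, 5 of 10 neutrophil and 6 of 15 hair cell markers, and in 2 of 10 bone, 1 of 10 strial, 1 of 10 supporting cell and fibrocyte, and 0 of 10 muscle markers. Of these genes 0 passed in edgeR or DESeq2, and 1 Schwann cell gene and 1 retinal gene had an unadjusted p under 0.05 in edgeR. The erythroid sum was 12563 ± 6245 CPM in WT cochleae and 18502 ± 4623 CPM in *Opa1*+/- cochleae, and the Schwann cell and myelin sum 4271 ± 606.6 and 4871 ± 629.1 CPM (SD, n = 4 each). Among the sums over the 10 marker lists the lowest p was that of the retinal list (exact two-sided permutation test, p = 0.143, adjusted p = 0.714). The smallest p that 70 arrangements of the mice allow is 0.0286, so that after adjustment over 10 lists a single list could not pass.

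**Figure D3:**
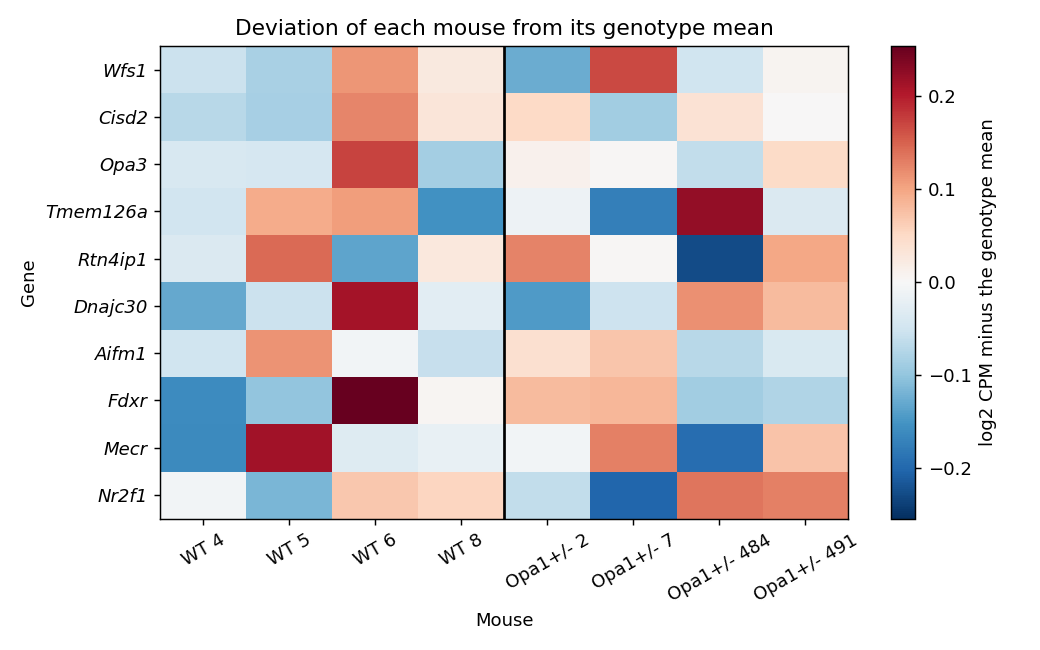
Log2 CPM of each gene (y axis) in each mouse (x axis) minus the mean of that gene over the 4 mice of the genotype, red for higher and blue for lower. WT_4 is below the WT mean in 10 of 10 genes, and WT_6 is the highest WT mouse in 7.

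Compared with each other, the genes took an order that depended on the length by which their counts were divided. Per kb of all annotated exons joined, WT levels ran from 11.6 ± 0.714 CPM per kb (SD, n = 4) for *Wfs1* to 2.78 ± 0.224 for *Rtn4ip1*. *Wfs1* lay apart from the next gene, *Nr2f1*, in every WT and every *Opa1*+/- mouse. *Nr2f1* and *Aifm1* overlapped in both genotypes, as did *Mecr* and *Cisd2*, and *Fdxr* and *Rtn4ip1*. *Dnajc30* and *Opa3* overlapped in WT mice only through *Opa3* in WT_6, at 7.30 CPM per kb. The other WT mice had 6.11 to 6.30 of *Opa3*, below the lowest *Dnajc30* value in WT of 6.56. Every *Opa1*+/- mouse had more *Dnajc30* per kb than any had *Opa3*. Per kb of the principal transcript, a measure added after the data were seen, *Aifm1* came first, with 15.8 ± 0.889 CPM per kb (SD, n = 4), and *Wfs1* had rank 4 with 11.6. By this length every mouse had more *Opa3* than *Dnajc30*, with WT means of 9.81 and 7.21. *Tmem126a* moved most, from 4.67 to 15.04 CPM per kb, since its joined exons span 2570 bases and its principal transcript 799. *Fdxr* and *Rtn4ip1* were the lowest in WT mice by both lengths, with 4.84 and 4.25 CPM per kb of the principal transcript.

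**Figure D4:**
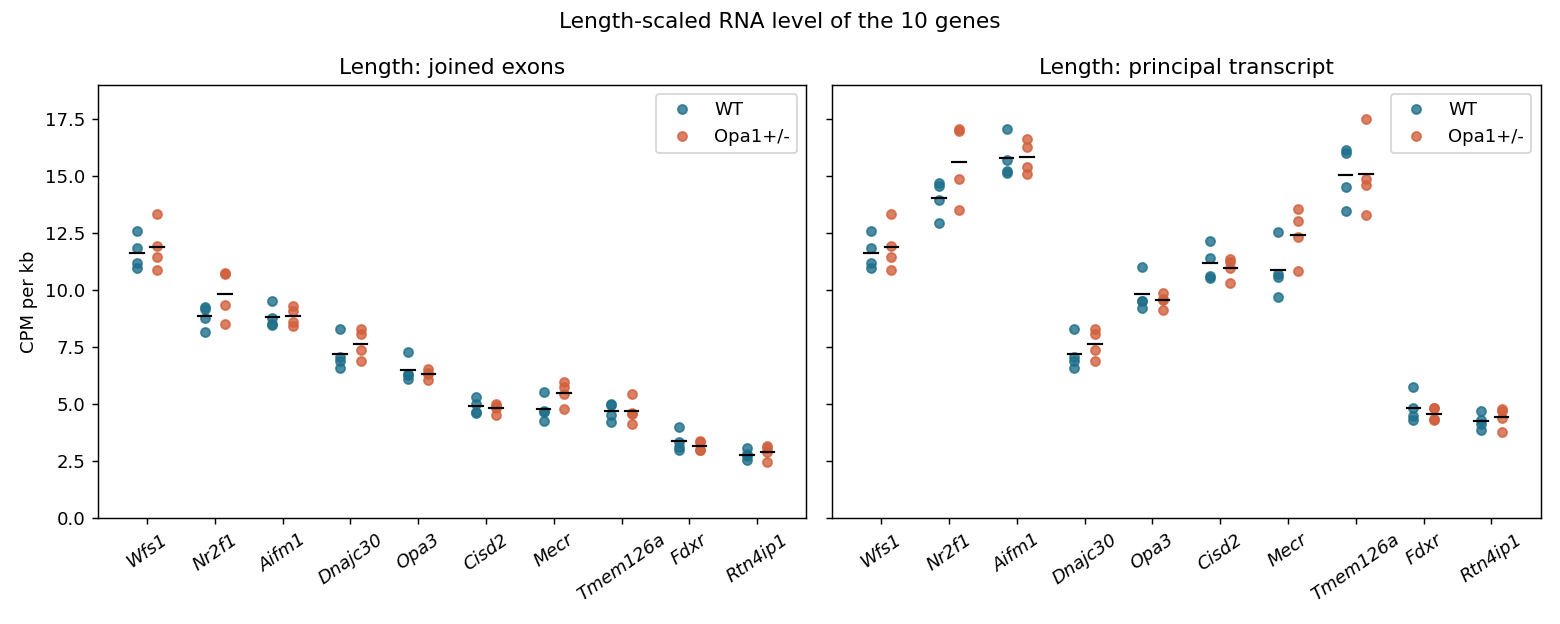
CPM per kb (y axis) of each gene (x axis) in 4 WT and 4 Opa1+/- mice, with points for mice and lines for genotype means, divided by the length of the joined exons (left) or of the principal transcript (right). Fdxr and Rtn4ip1 are lowest in both panels, while Tmem126a moves from 4.67 to 15.04 CPM per kb in WT.

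A further 22 genes of optic atrophy, with or without deafness, were listed beside the 10. Of these only *Opa1* passed in edgeR or DESeq2, and the median log2 fold change was -0.0050. Without adjustment 1 other, *Mcat*, had a p under 0.05 in edgeR. *Slc25a46*, an outer mitochondrial membrane protein named here after its values were seen, had a WT level of 74.4 ± 2.60 CPM and an *Opa1*+/- level of 68.7 ± 1.87 CPM (SD, n = 4 each), without overlap, with a log2 fold change of -0.11 and an edgeR adjusted p of 0.741. Over the 9 pathway lists together, 114 different genes were tested and 1, *Opa1*, passed in edgeR. Without adjustment 8 of the 114 had a p under 0.05, which is 7.02% beside the 6.72% of all genes, and in 5.26% the groups did not overlap, beside 4.31% of all genes.

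**Figure D5:**
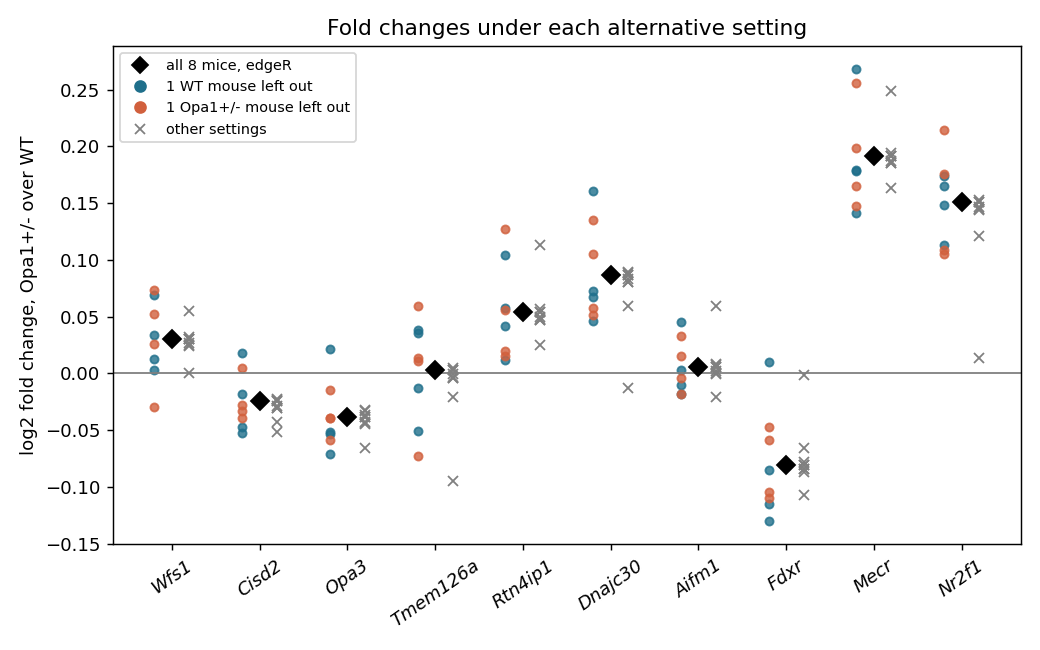
Log2 fold change of Opa1+/- over WT mice (y axis) of each gene (x axis) with all 8 mice in edgeR (diamonds), with 1 mouse left out (circles, blue for WT and orange for Opa1+/- mice) and under the other settings (crosses). The Mecr, Nr2f1 and Rtn4ip1 values stay above 0, and those of the other genes cross 0 in at least 1 setting.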

How the data were processed

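Cochlear RNA of 8 mice was analysed. The authors sequenced CORALL libraries in pairs of 80-nucleotide reads, used unique molecular identifiers against amplification bias and mapped the reads with STAR to GRCm38. Per mouse the authors deposited raw counts, whole numbers per gene symbol, not normalized. The authors name the CORALL Data Analysis Pipeline for the raw data. The counting program within it and the annotation used are not given in the sources used here. The files held 15 rows with a number in place of a symbol, with 0.112% to 0.124% of the counts, which were left out.

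Library sizes were the counts on named genes, scaled by TMM factors (0.948 to 1.06). Genes with a mean count over 10 after DESeq2 size factors were tested with the quasi-likelihood test of edgeR 4.0.16 in R 4.3.3, unpaired, with Benjamini-Hochberg adjustment. The SE of a log2 fold change was its absolute value over the root of F. Marker sums were tested by exact permutation, two-sided and adjusted over 10 lists. As alternatives, DESeq2 1.42.0, limma 3.58.1 (voom), other scalings, filters, thresholds and left-out mice were run. Het_484 and Het_491 were also left out together, as the only mice with 3-digit animal numbers. No WT mouse has such a number, and what it stands for is not given in the sources used here. All 10 members, 5 paralogs and, of each further list, any gene past the threshold or else the 2 of lowest p were named. A gene that this rule names is not reported here. Members and lists were chosen with earlier results of these data known. Positions, exons and lengths are from GENCODE vM21 (GRCm38), and older symbols were matched through RefSeq. *Hsd17b8*, *Coa1* and *Ahsp* had no match. Which mice shared a litter or an extraction day is not given in the sources used here.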

Additional observations from a re-analysis of the deposited data

Results flagged for a closer look

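*Opa3* in WT_6, with 37.1 CPM, lay far above the other 3 WT mice, which had 31.0 to 32.0 CPM. It was the only one of 22 groups of 4 mice (the 10 genes and *Opa1* in 2 genotypes) with a mouse this far from the rest by Dixon's 95% criterion, which chance alone meets in about 1 in 20 groups.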

How the results depend on the processing

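The number of genes called over the whole transcriptome was 5, and it was 23 with DESeq2, 10 with robust estimation, 12 without a filter, 11 at an adjusted p under 0.1, 2 with voom, 1 with mitochondrial genes left out of library sizes and tests, and 0 without Het_484 and Het_491. It was 0 to 9 with 1 mouse left out, 0 of them without Het_2. Of the 10 genes, 0 were called under all 18 alternatives, with a lowest adjusted p of 0.627. Their median log2 fold change ran from -0.0098 with total counts to 0.042. Of 170 fold changes under alternatives 149 kept their direction. The 21 that turned were at most 0.094 in size. With 1 mouse left out, the range was -0.030 to 0.074 for *Wfs1*, -0.052 to 0.018 for *Cisd2*, -0.071 to 0.021 for *Opa3*, -0.072 to 0.060 for *Tmem126a*, -0.018 to 0.046 for *Aifm1* and -0.13 to 0.010 for *Fdxr*. *Tmem126a* gave -0.0029 with DESeq2 size factors, -0.021 with total counts, -0.0038 with DESeq2, -0.0039 with voom, -8.71e-04 without a filter and -0.094 without Het_484 and Het_491, where *Dnajc30* gave -0.013. *Aifm1* gave -1.23e-04 with DESeq2 size factors and -0.020 with total counts. The cause of these turns was not tested. *Opa1*, at -0.87 with all mice, gave -0.85 without Het_2 (edgeR adjusted p = 0.0704) and -0.86 without Het_484 and Het_491 (edgeR adjusted p = 0.260), with fewer mice in each fit.

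As log2 ratios of means with 1 mouse left out, the marker sums ranged from -0.13 to 0.038 for hair cells, -0.28 to 0.031 for the stria, -1.05 to 0.40 for muscle and -0.21 to 0.67 for neutrophils and marrow, the last at -0.53 without Het_484 and Het_491. The erythroid ratio, 0.56 with all mice, ran from 0.38 without Het_491 to 0.95 without WT_4 and was 0.28 without Het_484 and Het_491. The Schwann cell and myelin ratio, 0.19 with all mice, ran from 0.10 without Het_2 to 0.26 without WT_6. No analysis by litter was possible because the sources used here do not say which mice shared a litter.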
